A study of Xenopus tropicalis with 12 samples.

Results

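The egr and etv genes described here are transcription factor (TF) genes of families known to answer to fibroblast growth factor (FGF) signals. They were measured in the early gastrula of the frog Xenopus tropicalis, and their response to FGF was not tested. Members were matched by gene name in the study's TF catalog, where 6 of the 7 names sought were found, out of 1197 TFs that have a gene model. They are the zinc finger genes egr1 (Xetrov90007781), egr2 (Xetrov90017506), egr3 (Xetrov90009394) and egr4 (Xetrov90000310) and the Ets genes etv1 (Xetrov90016062) and etv4 (Xetrov90025211). The name etv5 was dropped because the catalog lists no gene under it.

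FGF ligands bind receptor tyrosine kinases and act largely through the Ras and ERK kinase cascade. In the frog gastrula this cascade is active in the marginal zone, the belt of cells around the equator that forms mesoderm, where FGF maintains t (brachyury) and other mesoderm genes. Egr genes are immediate-early genes, switched on by ERK through Srf and its Ets partners without new protein synthesis. Etv1, Etv4 and Etv5 form the PEA3 subfamily of Ets factors, whose genes are used as readouts of FGF signaling in many vertebrate embryos.

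Embryos from in vitro fertilization were dissected at stage 10 to 10.25 into dorsal, lateral and ventral marginal zones, vegetal mass and animal cap, and undissected sibling embryos were collected. In the series description the stage is put at 10.5 instead. Each of the 6 groups has 2 libraries of polyA+ RNA, replicate 1 and replicate 2, which come from different clutches. The labels name no treatment, allele or genotype. Each dissected library is a pool of about 30 explants, doubled for the lateral zone because an embryo gives a pair of them. Expected counts, the reads that RSEM assigns to gene models, summed to between 14634582 and 29166548 per library. Levels are given as TPM, the abundance of a transcript among all transcripts of a library on a scale that sums to the same total in each, corrected for length. Of 17 region markers in the catalog, 16 had their highest regional mean in the region they are known for. For markers of the marginal zone as a whole, any of its 3 regions counted. The exception, foxi2, averaged 217 TPM in animal cap and 223 TPM in ventral marginal zone. Of the 16, otx2 was higher in vegetal mass than in dorsal marginal zone in replicate 1 (432 against 410 TPM). The marginal zone marker eomes averaged 543 TPM in vegetal mass, against 614, 426 and 495 TPM in dorsal, lateral and ventral marginal zone.

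The 6 genes differed widely in level. In whole embryos etv1 ranked 70 among the 1197 TFs, with a mean of 186 TPM. The others were scarce, with egr3 at rank 668, egr1 at rank 677, egr4 at rank 804, etv4 at rank 1012 and egr2 at rank 1024. Their whole embryo means were 2.60 TPM for egr3, 2.41 TPM for egr1, 0.85 TPM for egr4, 0.10 TPM for etv4 and 0.09 TPM for egr2. Of the members, 5 passed edgeR's filter on low counts and were tested, and etv4 did not pass. Because these are pools of tissue, fewer cells expressing a gene cannot be told apart from less RNA per cell.

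**Figure D1:**
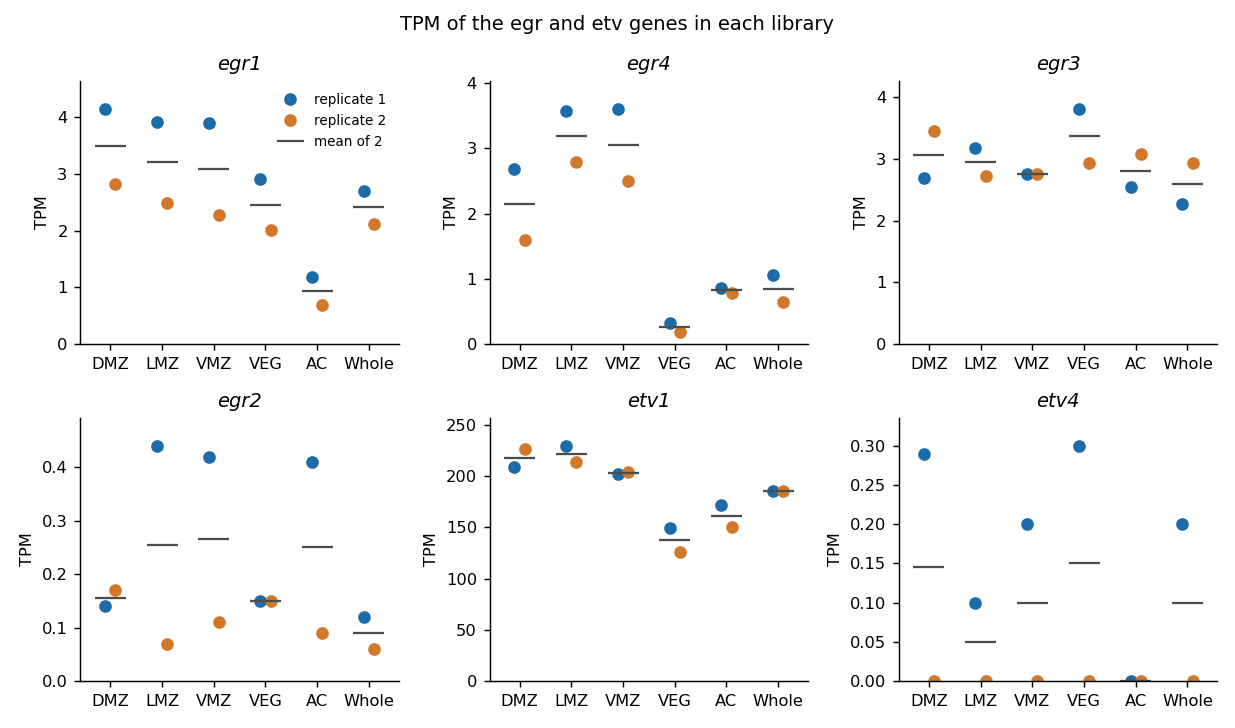
TPM of each gene (vertical axes, each from 0) in dorsal (DMZ), lateral (LMZ) and ventral (VMZ) marginal zone, vegetal mass (VEG), animal cap (AC) and whole embryo, with 1 point per library and a line at the mean of 2 replicates. All marginal zone points of egr4 and etv1 lie above their vegetal mass, animal cap and whole embryo points, and those of egr1 lie above its animal cap points.

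Transcripts of egr4 were concentrated in the marginal zones and scarce in vegetal mass. In mammals Egr4 is known as an immediate-early gene of neurons. Replicates 1 and 2 had 2.69 and 1.60 TPM in dorsal marginal zone, 3.58 and 2.79 TPM in lateral marginal zone, and 3.60 and 2.50 TPM in ventral marginal zone. In vegetal mass egr4 had 0.33 and 0.19 TPM, in animal cap 0.86 and 0.79 TPM, and in whole embryos 1.06 and 0.64 TPM. All 6 marginal zone libraries were thus above every other library, and in both clutches animal cap stood above vegetal mass.

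The 3 marginal zones together averaged 2.79 ± 0.747 TPM (SD, n = 6), against 0.26 ± 0.099 TPM in vegetal mass (SD, n = 2). Here and below, n = 6 counts libraries of 3 zones from 2 clutches, so that the SD mixes zones and clutches. Between marginal zones and vegetal mass egr4 rose 11.2-fold (log2 3.48, SE 0.39, edgeR adjusted p = 0.00493), where 6.57% of all genes tested changed in either direction. Each marginal zone alone passed the test against vegetal mass, with log2 fold changes of 3.16 for dorsal (adjusted p = 0.0170), 3.68 for lateral (adjusted p = 0.0115) and 3.61 for ventral (adjusted p = 0.0124). In these 3 comparisons 2.75%, 2.99% and 2.17% of all genes passed. The vegetal values rest on 8 counts in replicate 1 and 3 counts in replicate 2, with exact 95% Poisson limits of 3.45 to 15.8 and 0.619 to 8.77 counts that cover counting error only. Without vegetal mass replicate 2 the log2 fold change was 3.25 and the adjusted p was 0.0521.

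Against animal cap, the marginal zone mean of 2.79 ± 0.747 TPM (SD, n = 6) compares with 0.825 ± 0.0495 TPM (SD, n = 2), a log2 difference of 1.70 (SE 0.34, edgeR adjusted p = 0.0856). With the replicate number as a block, which compares regions within a clutch, the log2 difference was 1.73 and passed the test (adjusted p = 0.00447). With the block each marginal zone also passed against animal cap, with log2 fold changes of 1.41 for dorsal (adjusted p = 0.0340), 1.92 for lateral (adjusted p = 0.00694) and 1.86 for ventral (adjusted p = 0.00821). Without it the adjusted p-values were 0.276, 0.127 and 0.132.

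Between the poles, egr4 fell by 1.78 on the log2 scale in vegetal mass relative to animal cap (SE 0.41, edgeR adjusted p = 0.0427), where 8.04% of all genes passed. With the replicate block it fell by 1.75 (adjusted p = 0.00782). The call without the block was lost when any 1 of the 10 region libraries was left out, with values from -2.12 to -1.54 across those fits, and under 5 of the other 7 settings tried.

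The level of egr1, the gene of the family best known as an early ERK target in frog mesoderm, followed another order. It had 4.14 and 2.83 TPM in dorsal, 3.92 and 2.49 TPM in lateral and 3.89 and 2.28 TPM in ventral marginal zone. Vegetal mass had 2.91 and 2.01 TPM, animal cap 1.18 and 0.69 TPM, and whole embryos 2.70 and 2.12 TPM. Within each clutch the levels ran from dorsal through lateral and ventral marginal zone to vegetal mass and last animal cap, and animal cap alone did not overlap the marginal zones.

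Marginal zones averaged 3.26 ± 0.818 TPM (SD, n = 6), against 0.935 ± 0.347 TPM in animal cap (SD, n = 2). The ratio of marginal zones to animal cap was 3.38 in replicate 1 and 3.67 in replicate 2. The log2 difference of 1.78 (SE 0.33) did not pass the edgeR test over all genes (adjusted p = 0.0581) and passed with the replicate block (log2 1.78, adjusted p = 0.000616). With the block egr1 passed in dorsal (log2 1.93, adjusted p = 0.000860), lateral (log2 1.74, adjusted p = 0.00235) and ventral marginal zone (log2 1.68, adjusted p = 0.00268) against animal cap. The adjusted p-values without it were 0.0657, 0.147 and 0.153.

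Vegetal mass also held more egr1 than animal cap in both clutches, by 2.47 times in replicate 1 and 2.91 times in replicate 2. The log2 fold change was 1.27 in both fits, with an edgeR adjusted p of 0.0864 without the block and 0.00233 with it. In the same comparison egr4 fell, so that the order of the poles was opposite for these related genes. Against vegetal mass, marginal zones were at 1.37 times its egr1 level in replicate 1 and 1.26 times in replicate 2, and the log2 difference of 0.52 passed with the block alone (adjusted p = 0.0419, against 0.413 without it). Of the single zones, dorsal alone passed against vegetal mass with the block (log2 0.67, adjusted p = 0.0359), while lateral (log2 0.47, adjusted p = 0.122) and ventral (log2 0.42, adjusted p = 0.187) did not.

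Levels of egr3, which in mammals acts in muscle spindles and lymphocytes, lay between 2.26 and 3.80 TPM in all libraries. It had 2.68 and 3.44 TPM in dorsal, 3.17 and 2.72 TPM in lateral and 2.75 and 2.76 TPM in ventral marginal zone. Vegetal mass had 3.80 and 2.93 TPM, animal cap 2.54 and 3.07 TPM, and whole embryos 2.26 and 2.93 TPM. The pooled marginal zones overlapped vegetal mass, animal cap and whole embryos, and the order of regions differed between the clutches. Within each clutch, lateral and ventral marginal zone lay below vegetal mass, and ventral marginal zone did so without overlap between the libraries. Marginal zones averaged 2.92 ± 0.311 TPM (SD, n = 6). The log2 differences of marginal zones were -0.06 against vegetal mass (SE 0.28) and 0.04 against animal cap (SE 0.29), and none of the 10 pairs of regions passed with or without the block. With 2 libraries per region this does not show that the levels were equal. The expected counts of egr3 were not whole numbers in 10 of the 12 libraries, so that part of its reads was shared with other gene models.

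The gene egr2, known as krox20 for its role in hindbrain segments and neural crest, was near the limit of detection. It had 6 and 4 counts in dorsal, 17 and 3 counts in lateral and 17 and 3 counts in ventral marginal zone. Vegetal mass had 6 and 4 counts, animal cap 16 and 2 counts, and whole embryos 5 and 2 counts. The 3 libraries with 16 or 17 counts, all of replicate 1, had 0.41 to 0.44 TPM, and the other 9 libraries had from 0.06 to 0.17 TPM. The exact 95% Poisson limits were 9.90 to 27.2 counts at 17 and 2.20 to 13.1 counts at 6, so that these overlap. The limits at 3 counts, the replicate 2 value of lateral and ventral marginal zone, were 0.619 to 8.77. Expressed as TPM, which allows for depth, the lateral limits were 0.256 to 0.704 in replicate 1 and 0.0144 to 0.205 in replicate 2, without overlap. The ventral limits were 0.245 to 0.672 TPM in replicate 1 and 0.0227 to 0.321 TPM in replicate 2, and these overlapped. No pair of regions passed the test for egr2.

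**Figure D2:**
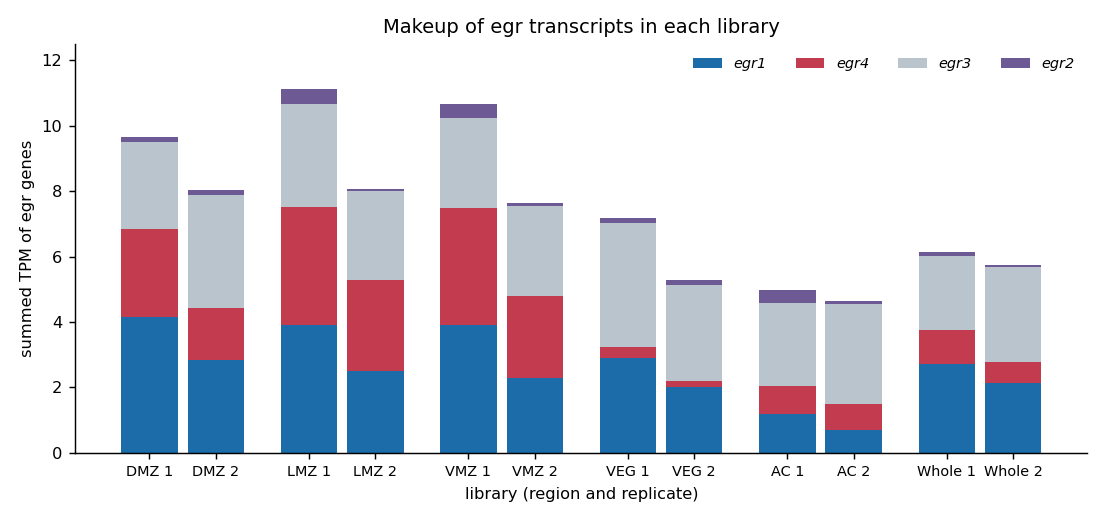
Summed TPM of the 4 egr genes (vertical axis, from 0) in each library, labelled by region and replicate and stacked by gene. The egr4 segment makes up 19.9% to 34.6% of the sum in marginal zones and 3.60% to 4.59% in vegetal mass, while egr3 makes up the larger part at both poles.

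The makeup of the egr family therefore differed along the animal-vegetal axis. Summed over its 4 genes, the family reached 7.65 to 11.1 TPM in marginal zones, against 5.28 to 7.19 TPM in vegetal mass, 4.64 to 4.99 TPM in animal cap and 5.75 to 6.14 TPM in whole embryos. The share of egr1 was 29.8% to 42.9% in marginal zones, 38.1% to 40.5% in vegetal mass and 14.9% to 23.7% in animal cap. The share of egr3 was 25.8% to 42.8% in marginal zones, against 52.9% to 55.5% in vegetal mass and 50.9% to 66.2% in animal cap. These shares are descriptions of the libraries and were not tested.

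Of the Ets members, etv1 was abundant everywhere and changed less in ratio than egr4. It had 209 and 227 TPM in dorsal, 229.7 and 214 TPM in lateral and 202 and 204 TPM in ventral marginal zone. Vegetal mass had 149.7 and 126 TPM, animal cap 172 and 151 TPM, and whole embryos 185 and 186 TPM. As for egr4, the marginal zone libraries did not overlap the others, and animal cap stood above vegetal mass in both clutches. Whole embryo levels lay between those of the marginal zones and the poles.

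Marginal zones averaged 214 ± 11.5 TPM (SD, n = 6), against 138 ± 16.6 TPM in vegetal mass (SD, n = 2). The gene rose 1.70-fold in marginal zones relative to vegetal mass (log2 0.77, SE 0.16, edgeR adjusted p = 0.0384; with the block log2 0.76, adjusted p = 0.000256). The call without the block was lost in 9 of the 10 fits that each left out 1 library, with log2 values from 0.70 to 0.81 there. The exception was the fit without dorsal marginal zone replicate 1. The fit with the block was not repeated with libraries left out. Single zones had log2 fold changes of 0.83 for dorsal (adjusted p = 0.000566), 0.78 for lateral (adjusted p = 0.000842) and 0.66 for ventral (adjusted p = 0.00263) with the block. Without it the adjusted p-values were 0.0723, 0.0920 and 0.164.

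Against animal cap, at 161 ± 15.0 TPM (SD, n = 2), the log2 difference of marginal zones was 0.40 (SE 0.16, edgeR adjusted p = 0.720), and it passed with the block (log2 0.40, adjusted p = 0.0372). Among single zones dorsal alone passed against animal cap with the block (log2 0.47, adjusted p = 0.0432), while lateral (log2 0.42, adjusted p = 0.0887) and ventral (log2 0.30, adjusted p = 0.249) did not. Vegetal mass was below animal cap by a log2 difference of -0.36, with an adjusted p of 0.341 without the block and 0.0272 with it. The expected counts of etv1 were fractional in all 12 libraries, so that some of its reads were shared with other gene models.

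Reads of etv4, the gene of the mammalian factor PEA3, were almost absent. Its gene model had 3 counts in dorsal marginal zone, 1 in lateral marginal zone, 2 in ventral marginal zone, 3 in vegetal mass, 0 in animal cap and 2 in whole embryo of replicate 1, and 0 counts in all 6 libraries of replicate 2. No library exceeded 3 counts, and no difference between regions was detectable at this depth. At 0 counts the exact 95% Poisson upper limit is 3.69 counts.

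**Figure D3:**
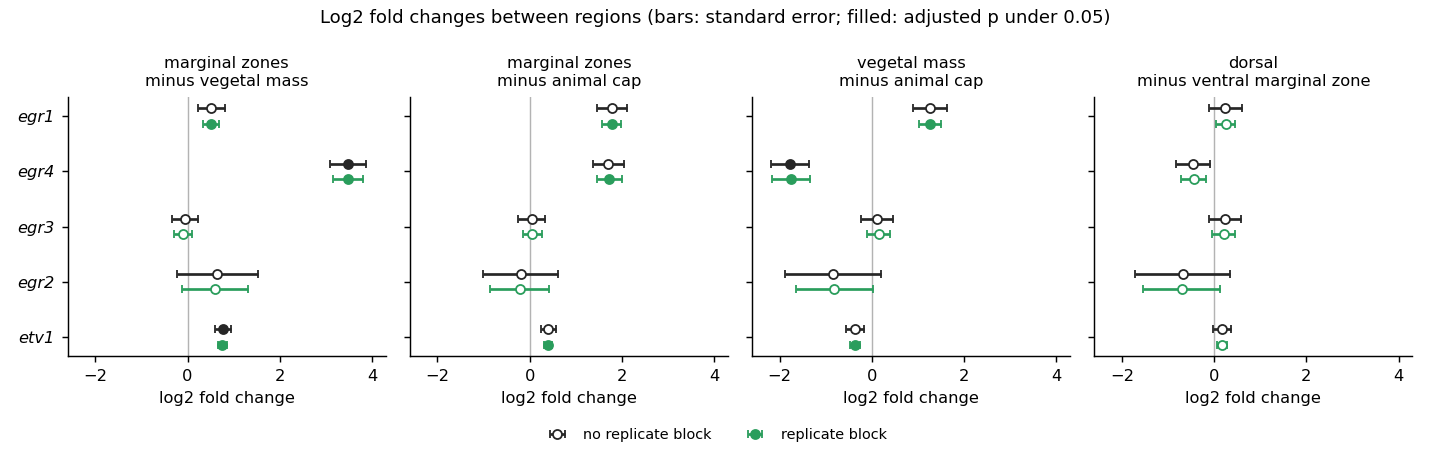
Log2 fold changes (horizontal axes) of the 5 tested genes in 4 comparisons of regions, without and with the replicate block, with bars of 1 standard error and filled points where the edgeR adjusted p is under 0.05. In marginal zones minus vegetal mass the points of egr4 lie at 3.48 and those of etv1 near 0.77, and in vegetal mass minus animal cap egr1 lies on the positive side and egr4 on the negative side.

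Read over the 5 tested genes, 2 rose in marginal zones relative to vegetal mass and 3 did with the block, against 6.57% and 38.2% of all genes. For marginal zones minus animal cap, 0 of 5 passed without the block, although 3 had an unadjusted p under 0.05, as did 943 of all 15727 genes, and DESeq2 called 2 members and 502 of all genes. With the block 3 of 5 rose, where 5.86% of all genes passed and where 1.31% did without it. For vegetal mass minus animal cap, 1 gene fell without the block, and with it 1 rose and 2 fell, where 40.6% of all genes passed. With a background of this size the vegetal comparisons called many genes, and the count of members there is no result by itself.

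The same holds for single zones, for which the 10 pairs of regions were tested separately. With the block, 33.3% of all genes passed in dorsal marginal zone minus vegetal mass, 29.4% in lateral marginal zone minus vegetal mass and 25.4% in ventral marginal zone minus vegetal mass. Fewer passed against animal cap, with 4.95% for dorsal, 3.56% for lateral and 4.08% for ventral marginal zone, and without the block 1.35%, 0.795% and 0.795%. In these animal cap comparisons 3 members rose with the block in dorsal marginal zone, and 2, egr1 and egr4, rose in lateral and in ventral marginal zone.

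None of the 5 tested members passed a test between marginal zones, and with 2 libraries per zone this does not show that their levels were alike. Dorsal minus ventral log2 differences were 0.25 for egr1 (SE 0.35), -0.45 for egr4 (SE 0.37), 0.24 for egr3 (SE 0.35), -0.68 for egr2 (SE 1.04) and 0.18 for etv1 (SE 0.19). The value of egr1 was -0.0009 without ventral marginal zone replicate 2, and that of etv1 was -0.05 without dorsal marginal zone replicate 2. None of the 5 had an edgeR adjusted or unadjusted p under 0.05 with or without the block, nor did DESeq2 or limma call any, where 0.0445% of all genes passed without the block and 1.46% with it. The pairs of dorsal with lateral and of lateral with ventral marginal zone also called no member, where 0% of all genes passed without the block in each, and 0.547% and 0.0254% with it. In both clutches the egr4 level of dorsal marginal zone was below that of lateral and ventral marginal zone, at 2.69 against 3.58 and 3.60 TPM in replicate 1 and at 1.60 against 2.79 and 2.50 TPM in replicate 2.

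Dissected tissue was then compared with undissected whole embryos. On average over the 5 regions, each weighted equally on the log2 scale, the difference was -0.00 for egr1 (SE 0.16), 0.20 for egr3 (SE 0.28), 0.70 for egr4 (SE 0.30), 1.18 for egr2 (SE 0.84) and 0.01 for etv1 (SE 0.15). None of the 5 passed the edgeR test with or without the block, where 0.0126% of all genes passed without the block and 1.77% with it. None had an unadjusted p under 0.05 in edgeR without the block or with DESeq2, and egr4 alone did with the block (edgeR adjusted p = 0.332). With limma on log2(TPM + 1), 1 member had an unadjusted p under 0.05, as did 403 of all 15848 genes, and none passed after adjustment.

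The egr4 level of whole embryos was 0.479 times the plain mean of the 5 regions in replicate 1 and 0.407 times in replicate 2. For etv1 these ratios were 0.962 and 1.01, and for egr1 they were 0.842 and 1.03. Regions make up unequal parts of an embryo, and no weights by their mass or RNA content were available.

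Among 18 other immediate-early genes, 0 passed in dissected minus whole embryo without the block, 4 had an unadjusted p under 0.05, and DESeq2 called 1 higher and 1 lower. Of all 15848 genes, 2 passed without the block, 469 had an unadjusted p under 0.05, and DESeq2 called 89. With the block klf2 fell by 1.84 on the log2 scale (edgeR adjusted p = 0.000174) and junb, named after its values were seen, rose by 2.86 (adjusted p = 0.00370). In that fit 1.77% of all genes passed. The AP-1 gene junb had 1.81 to 13.2 TPM in dissected libraries, against 1.60 and 0.25 TPM in whole embryos, and whether handling of the explants had a part in these values or in that of egr4 was not tested. The median log2 difference of the 18 genes was 0.13, against -0.01 over all genes. A mean of log2 values over regions is low for a gene confined to few of them, and the 17 region markers had a median of -1.01. The gene klf2 had 52.8 and 35.5 TPM in animal cap, against 4.18 to 14.9 TPM in the other regions and 44.8 and 39.3 TPM in whole embryos. In replicate 2 its whole embryo level was thus above that of every region. Whether the averaging of log2 values has a part in the fall of klf2 was not tested.

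The replicates differed for most genes, as 65.9% of all genes tested passed in replicate 1 minus replicate 2 over the 6 groups. Each replicate is a single clutch whose 6 groups served as repeats, so these p-values do not measure the spread among clutches. A difference between clutches cannot be told apart from other differences between the rounds of the experiment. Of the members, egr1 was higher in replicate 1 in every region and in whole embryos (log2 0.33, SE 0.12, edgeR adjusted p = 0.0330), and etv1 had a log2 difference of -0.20 (SE 0.06, adjusted p = 0.0134) that turned to 0.07 when limma was fitted to log2(TPM + 1). The call of egr1 was lost in 9 of 12 fits that each left out 1 library, with adjusted p-values up to 0.111 there, and kept without dorsal marginal zone replicate 2 or either whole embryo library. Differences of egr2 (log2 1.03, adjusted p = 0.0790), egr3 (log2 -0.33, adjusted p = 0.0590) and egr4 (log2 0.25, adjusted p = 0.235) did not pass. Without either vegetal mass library egr3 passed, with adjusted p-values of 0.0174 and 0.0172, and egr2 passed without either dorsal marginal zone library or vegetal mass replicate 1, with adjusted p-values from 0.0399 to 0.0496. The gene egr4 passed with limma on log2(TPM + 1) (adjusted p = 0.00860) and on log2(TPM + 0.1) (adjusted p = 0.00336), and egr2 on log2(TPM + 0.1) (adjusted p = 0.0455). The main fit called 2 of 5 members, where 65.9% of all genes passed, and this count is no result about the members by itself.

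Factors that connect ERK to these genes are known from mammals and flies, and 6 of the 8 listed passed the filter. Srf binds with the ternary complex factors Elk1, Elk3 and Elk4 at egr promoters, Ets1 and Ets2 are activators phosphorylated by ERK, and Cic and Erf are repressors that ERK inactivates. The mean of srf was 33.4 TPM in dorsal, 25.2 TPM in lateral and 24.2 TPM in ventral marginal zone, 14.9 TPM in vegetal mass and 30.9 TPM in animal cap. Of its partners elk4 was the one that passed the filter, at 5.12 to 6.73 TPM in marginal zones, 13.0 TPM in vegetal mass and 4.37 TPM in animal cap, while elk1 and elk3 were at or below 0.195 TPM in every group. These means cover replicates that differed. Replicates 1 and 2 had 20.7 and 46.1 TPM of srf in dorsal marginal zone and 18.8 and 7.20 TPM of elk4 in vegetal mass. In both clutches vegetal mass was the lowest region for srf and the highest for elk4.

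The repressor genes were expressed in all regions. Group means of cic were 8.01 to 8.80 TPM in marginal zones, 13.8 TPM in vegetal mass and 9.39 TPM in animal cap. Its replicates, each a single clutch, lay far apart (replicate 1 minus replicate 2 log2 1.47, edgeR adjusted p = 3.14e-08). Replicates 1 and 2 had 12.6 and 4.17 TPM in dorsal marginal zone and 20.9 and 6.60 TPM in vegetal mass, the highest region in both. Those of erf were 44.3 to 57.7 TPM in marginal zones, 69.2 TPM in vegetal mass and 54.3 TPM in animal cap. In replicate 2 the erf levels of ventral marginal zone and vegetal mass were 51.4 and 50.7 TPM.

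Among the activator genes, ets2 had 181 to 323 TPM in marginal zones, 131 TPM in vegetal mass and 218 TPM in animal cap, and ets1 had 33.0 to 49.4 TPM in marginal zones, 91.5 TPM in vegetal mass and 40.7 TPM in animal cap. Relative to vegetal mass, ets2 rose in marginal zones (log2 1.03, edgeR adjusted p = 0.0307). It was the 1 of 6 regulators that passed, where 6.57% of all genes did. With the block ets2 and srf rose and ets1, elk4 and cic fell, so that 5 of 6 passed, where 38.2% of all genes did. Against animal cap 0 of 6 passed without the block, with the block and with DESeq2, and 0 had an unadjusted p under 0.05 without the block. The median log2 difference of the 6 regulators was -0.45 for marginal zones minus vegetal mass, against -0.02 over all genes.

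Within the Ets family, etv1 was a major transcript. Of 26 Ets genes with a gene model, etv1 made up 19.1% to 23.6% of the summed mean TPM in marginal zones, 18.1% in vegetal mass, 17.9% in animal cap and 20.1% in whole embryos. By these means it ranked first in dorsal marginal zone and vegetal mass and second after ets2 in lateral and ventral marginal zone and whole embryo. In animal cap it was behind both ets2 and etv6. Some ranks differed between clutches. In replicate 1 ets2 stood above etv1 in dorsal marginal zone (216 against 209 TPM) and vegetal mass (155 against 149.7 TPM). In whole embryo replicate 2 etv1 stood above ets2 (186 against 164 TPM). Of the 24 Ets genes other than the members, 13 were tested. Between marginal zones and vegetal mass, etv6 (log2 1.11, edgeR adjusted p = 0.0178) and ets2 rose and none fell, where 6.57% of all genes passed, and with the block 5 rose and 5 fell, where 38.2% did.

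Between marginal zones and animal cap 0 of the 13 passed without the block, and 3 had an unadjusted p under 0.05, as did 943 of all 15727 genes. With the block etv2 rose and elf1 fell, where 5.86% of all genes passed. The endothelial regulator etv2 had mean levels of 20.3 TPM in dorsal and 2.28 TPM in lateral marginal zone and 1.21 and 1.19 TPM in the ventral marginal zone libraries, against a mean of 0.245 TPM in animal cap (adjusted p = 0.102, and 0.00818 with the block). A relative in the same lineage, fli1, had 0.75, 0.235 and 0.06 TPM in dorsal, lateral and ventral marginal zone and is listed at 0 in animal cap (adjusted p = 0.261). Both genes were also present in vegetal mass, etv2 at 15.0 and 11.2 TPM and fli1 at 1.04 and 0.66 TPM, above lateral and ventral marginal zone. Levels of elf1 were 4.21 to 5.87 TPM in marginal zones, against 17.2 TPM in animal cap (adjusted p = 0.254, and 0.000141 with the block), and those of spdef, a gene of secretory epithelia, were 0.38 to 0.47 TPM, against 0.945 TPM, which did not pass. The median log2 difference of the 13 genes was 0.05.

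Mesoderm genes that depend on FGF in frog embryos were compared over the same regions. They were chosen as known mesoderm genes, and t and myf5 are also among the 17 region markers. Of the 6 tested, 3 rose in marginal zones relative to animal cap, and all 6 rose with the block. In this comparison 1.31% of all genes passed without the block and 5.86% with it. The median log2 difference of the 6 genes was 3.98, against 0.01 over all genes. The T-box gene t averaged 584 TPM in dorsal, 793 TPM in lateral and 854 TPM in ventral marginal zone, against 25.9 TPM in animal cap (log2 4.85, edgeR adjusted p = 0.00281). The muscle regulator myf5 had means of 53.3, 52.7 and 14.6 TPM in dorsal, lateral and ventral marginal zone, against 1.30 TPM in animal cap (log2 4.69, adjusted p = 0.0212). The presomitic gene msgn1 had 2.33, 13.3 and 21.1 TPM in these zones, against 0.07 TPM from 0 and 1 counts in animal cap (adjusted p = 0.0265). The caudal-type gene cdx2 had 23.7, 60.7 and 87.4 TPM, against 5.27 TPM in animal cap (adjusted p = 0.0502, and 0.00131 with the block). The log2 differences of 1.78 for egr1 and 1.70 for egr4 were below those of all 6 mesoderm genes, the lowest of which was 2.41 for cdx1. Against vegetal mass 4 of the 6 rose with and without the block, where 6.57% of all genes passed without it and 38.2% with it. Log2 differences were 4.24 for cdx4, 3.77 for cdx2, 2.67 for myf5 and 2.17 for t, while those of cdx1 (0.19) and msgn1 (-0.46) did not pass. The log2 difference of 3.48 for egr4 stood between those of cdx2 and myf5 there.

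Of the 18 immediate-early genes, klf2 fell (log2 -2.38, edgeR adjusted p = 0.00723) and myc rose (log2 1.26, adjusted p = 0.0240) in marginal zones relative to animal cap. In this comparison 1.31% of all genes passed. With the block 3 of the 18 rose and 2 fell, where 5.86% of all genes passed. The level of fos, a partner of Jun in AP-1, was 8.14 to 13.7 TPM in marginal zones, against 4.63 TPM in animal cap (log2 1.06, adjusted p = 0.221, and 0.0162 with the block). That of jund was 2.23 to 3.03 TPM, against 4.82 TPM in animal cap (log2 -0.84, adjusted p = 0.393; with the block log2 -0.83, adjusted p = 0.0183). The median log2 difference of the 18 genes was -0.21, against the log2 difference of 0.01 over all genes.

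**Figure D4:**
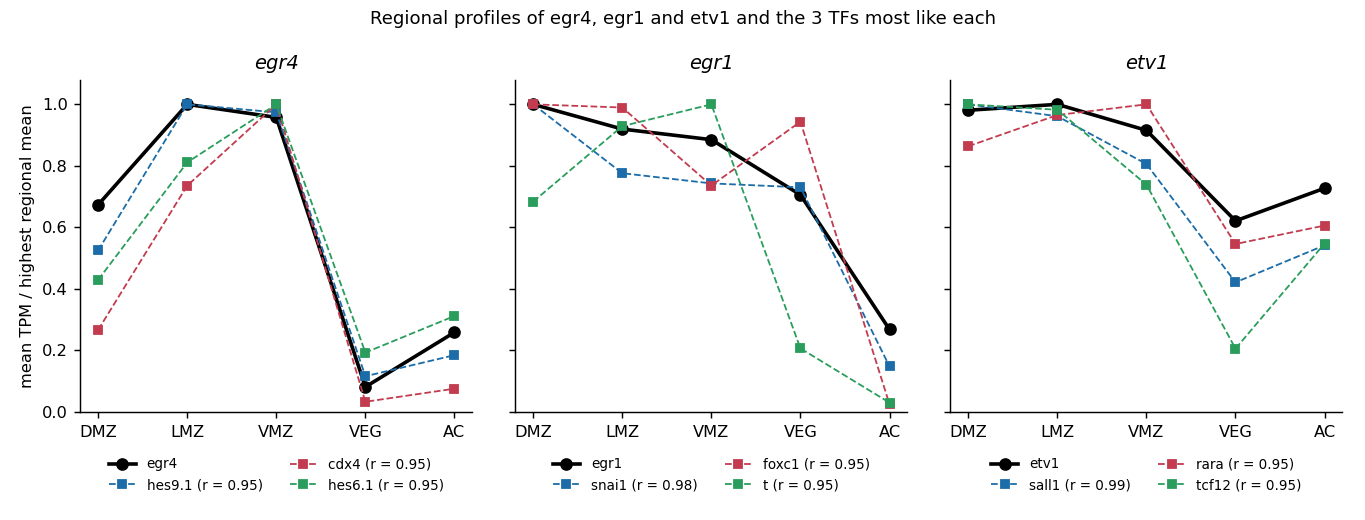
Mean TPM per region divided by the highest regional mean (vertical axis, from 0) of egr4, egr1 and etv1 in black and of the 3 TFs whose profiles correlate best with each, with Pearson r over 10 libraries. The profile of egr4 and its 3 neighbours drops in vegetal mass and animal cap, that of egr1 drops furthest in animal cap, and that of etv1 drops furthest in vegetal mass.

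For each tested member, the TFs with the most similar regional profile were found by Pearson correlation of log2(TPM + 1) over the 10 region libraries, after subtraction of the mean of the clutch. About 624 TFs with a mean of at least 1 TPM were compared, and the points share libraries and clutches, so that the correlations are descriptions. The profile of egr4 was most like those of hes9.1 (r = 0.953), cdx4 (r = 0.953) and hes6.1 (r = 0.952). The Hes genes encode repressors of the Notch pathway class, and cdx4 is a posterior homeobox gene. The mean of cdx4 was 30.6, 84.3 and 114.6 TPM in dorsal, lateral and ventral marginal zone, 3.82 TPM in vegetal mass and 8.70 TPM in animal cap.

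The profile of egr1 was most like those of snai1 (r = 0.977), foxc1 (r = 0.953) and t (r = 0.951). The mesenchymal repressor snai1 had means of 182, 141 and 135 TPM in dorsal, lateral and ventral marginal zone, 133 TPM in vegetal mass and 26.9 TPM in animal cap, which is the same order of regions as that of egr1. Those of t were 584, 793 and 854 TPM in these zones, 177 TPM in vegetal mass and 25.9 TPM in animal cap. Thus t shared its lowest level in animal cap with egr1, but not the order of the marginal zones. The profile of etv1 was most like those of the zinc finger gene sall1 (r = 0.986), the retinoic acid receptor gene rara (r = 0.949) and tcf12 (r = 0.949). Means of sall1 were 405, 389.6 and 327 TPM in dorsal, lateral and ventral marginal zone, 171 TPM in vegetal mass and 219.6 TPM in animal cap, again highest in the marginal zones and lowest in vegetal mass.

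For egr3 the closest were foxn3 (r = 0.889), znf592 (r = 0.881) and zfx (r = 0.873), all of which had their highest regional mean in vegetal mass. For egr2, whose values rest on few counts, they were nr2c2 (r = 0.722), nkx2-5 (r = 0.693) and klf10 (r = 0.634). Among the members themselves, egr4 and etv1 were the most alike (r = 0.897), followed by egr1 with egr4 (r = 0.572) and egr1 with etv1 (r = 0.569), over the same 10 libraries.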

How the data were processed

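Members and gene lists were chosen with earlier results of these data known. The authors mapped 50-bp single-end reads from non-stranded libraries to the v9.0 assembly with RSEM 1.2.12 (default parameters). For every gene model the authors deposited RSEM's expected counts and, in a second table, TPM. RSEM divides shared reads among genes, and without strand, overlapping and antisense genes cannot be told apart. Names came from the study's TF catalog. No sequence of a build matching the files was used here.

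The main test was edgeR 4.0.16 in R 4.3.3 (filterByExpr, TMM factors, robust glmQLFit, glmQLFTest) on rounded expected counts, in place of the EBSeq of the study. The 10 region libraries entered 1 model of 15727 genes. The comparisons of dissected with whole embryos and of the replicates used all 12 libraries and 15848 genes. P-values were Benjamini-Hochberg adjusted over all genes of a comparison, with a threshold of 0.05. The marginal zones are the mean of 3 regions. The test code was also run on simulated counts, with a fixed spread and with changes placed only in genes of higher counts than the egr genes. That run does not show how the tests perform at the low counts of those genes.

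Replicates are different clutches per the study. Deviations of same-numbered libraries from their group means correlated at 0.657 to 0.823 over 15 pairs of groups (median 0.754), so the number pairs the libraries. The main tests between groups had no replicate block, so that differences between clutches count in their spread. The blocked fit, which uses the pairing, is given beside them where it changes a call.

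Alternatives were the replicate block, DESeq2 1.42.0, no TMM, no filter, only the libraries compared, limma 3.58.1 on log2 TPM with a pseudocount of 1 or 0.1, and each library or replicate left out. Named genes were all members, all regulators, the 4 genes of each other list with the lowest p for marginal zones minus animal cap, and the 3 TFs most like each member. The genes etv6, cdx1 and junb fall outside this rule and were chosen after their values were seen. Tables and figures used matplotlib 3.10.9, scipy 1.17.1, pandas 2.3.3 and numpy 2.4.6 in Python 3.11.15.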

Additional observations from a re-analysis of the deposited data

How the results depend on the processing

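The number of members past the threshold depended on the fit, as did the number of all genes. Of all 15727 genes, 206 passed in marginal zones minus animal cap, 922 with the block and 502 with DESeq2. In marginal zones minus vegetal mass 1033, 6005 and 2195 passed, and in vegetal mass minus animal cap 1265, 6393 and 2540. The counts of members that follow are no result about the members by themselves. For marginal zones minus animal cap the number of members was 0, and 3 with the replicate block and 2 with DESeq2. For marginal zones minus vegetal mass it was 2, and 1 with no filter on low counts, with limma on either TPM scale and with only the libraries compared, and 0 to 2 when 1 library was left out. For vegetal mass minus animal cap it was 1, and 3 with the replicate block, 2 with DESeq2, and 0 without TMM, with no filter, with limma on either scale, with only the libraries compared and with each library left out. For replicate 1 minus replicate 2 it was 2, and 1 with DESeq2, without TMM and with no filter, and 1 to 3 when 1 library was left out. The block changed no call of a member in dorsal minus ventral or in dissected minus whole embryo. Signs turned for egr1 in dissected minus whole embryo (0.0356 with DESeq2, 0.0197 with limma on log2(TPM + 1), -0.20 to 0.16 with libraries left out), for etv1 in the same comparison (-0.0040 and -0.0042 with limma, -0.11 to 0.15 with libraries left out), for dorsal minus ventral of egr1 (-0.0009 to 0.55) and etv1 (-0.0463 to 0.37) with libraries left out, and for etv1 in replicate 1 minus replicate 2 (0.0661 and 0.0665 with limma). The causes were not tested. Without TMM the median log2 difference of all genes moved by -0.13 in marginal zones minus vegetal mass, 0.16 in vegetal mass minus animal cap and 0.13 between replicates. Depth limits egr2, egr4 in vegetal mass and etv4 most. Of the 3 TFs most like each member, 2 of egr1 and 1 of egr4 were shared when the pseudocount was 0.1, and 1 of egr1, 1 of egr4, 2 of etv1 and 0 of egr3 were shared without subtraction of the clutch mean.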
